A study of Mus musculus with 24 samples.

Results

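Expression of 8 channel and receptor genes of nociceptors, the sensory neurons that detect painful stimuli, was followed in the spinal nerve roots of postnatal mice. The genes were Scn9a, Scn10a and Scn11a, Trpv1, Trpa1 and Trpm8, P2rx3 and Mrgprd. They were listed by name, with no threshold on their values, and made up 8 of the 37074 gene names on the array. All 8 were found, on 15 probes. One probe was used for each gene, the one with the highest mean over the 24 arrays, and the other probes served as a check.

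The samples were total RNA of efferent nerve fibres (EN), the ventral root, and of afferent nerve fibres (AN), the dorsal root, at spinal levels L4-L6 of untreated C57BL/6 mice. Each fibre type was collected at birth (P0) and at 1, 3 and 5 weeks of age (1 W, 3 W and 5 W), which gave 8 groups with 3 arrays each. Mice of both sexes were used, and how many of them went into an array is not given in the sources used here. The values are the authors' log2 signals, in which 1 unit is a 2-fold difference. A gene was said to be higher or lower, or to have risen or fallen, when its Benjamini-Hochberg adjusted p in limma was below 0.05 over all 36409 tested probes and its fold change was above 2.

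Nociceptors are sensory neurons whose cell bodies lie in the dorsal root ganglion and whose axons run centrally through the dorsal root. The voltage-gated sodium channels Nav1.7 (Scn9a), Nav1.8 (Scn10a) and Nav1.9 (Scn11a) set their excitability. The TRP channels Trpv1, Trpa1 and Trpm8 open to heat and capsaicin, to chemical irritants, and to cold and menthol, respectively. P2rx3 is an ion channel opened by extracellular ATP, and Mrgprd is a G protein-coupled receptor that marks non-peptidergic nociceptors of the skin. Motor axons of the ventral root are not known for these genes.

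An array sees each gene through a 60-base probe, so the sequences decide which transcript a value stands for. A probe of Trpv1 and a check probe of Scn10a are shown, since both detected a difference between the roots at 1 W. The Trpv1 probe, at chr11:73073950-73074009 of mm9 on the plus strand, ends in the stop codon of its open reading frame, printed in capitals. A check probe of Scn10a, at chr9:119518293-119518352 of mm9 on the minus strand, is open in 2 reading frames.
Trpv1 probe: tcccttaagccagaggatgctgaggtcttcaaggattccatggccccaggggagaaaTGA
Scn10a check probe: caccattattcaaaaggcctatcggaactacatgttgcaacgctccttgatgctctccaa

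For 6 of the 8 genes a promoter was held in the RefSeq table (GRCm38.p6), and the 250 bases before the start were read on the gene's strand. Scn10a and Scn11a are shown because they are neighbours on chromosome 9, with starts 106424 bases apart, and because their levels ran closest together. The capitals mark the longest run that both hold, 11 bases, which lies 197 bases before the start of Scn10a and 109 bases before that of Scn11a. It was picked for being shared. Trpv1 and Trpm8 are shown because they alone held any of the 4 short motifs searched.
Scn10a, chr9:119719033-119719282, minus strand: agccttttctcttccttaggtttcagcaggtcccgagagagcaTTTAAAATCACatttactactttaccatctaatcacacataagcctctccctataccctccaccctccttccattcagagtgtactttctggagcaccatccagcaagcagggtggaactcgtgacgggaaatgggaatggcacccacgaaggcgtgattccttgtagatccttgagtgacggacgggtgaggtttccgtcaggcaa
Scn11a, chr9:119825457-119825706, minus strand: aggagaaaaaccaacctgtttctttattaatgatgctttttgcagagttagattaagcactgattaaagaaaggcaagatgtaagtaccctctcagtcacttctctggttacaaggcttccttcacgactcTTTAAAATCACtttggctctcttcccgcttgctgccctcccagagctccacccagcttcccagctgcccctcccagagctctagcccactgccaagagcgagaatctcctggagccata
Trpv1, chr11:73233899-73234148, plus strand: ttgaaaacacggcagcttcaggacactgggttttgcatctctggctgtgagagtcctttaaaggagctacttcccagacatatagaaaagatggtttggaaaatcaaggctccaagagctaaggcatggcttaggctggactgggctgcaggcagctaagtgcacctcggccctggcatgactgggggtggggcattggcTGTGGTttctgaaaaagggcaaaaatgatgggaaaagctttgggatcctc
Trpm8, chr1:88306485-88306734, plus strand: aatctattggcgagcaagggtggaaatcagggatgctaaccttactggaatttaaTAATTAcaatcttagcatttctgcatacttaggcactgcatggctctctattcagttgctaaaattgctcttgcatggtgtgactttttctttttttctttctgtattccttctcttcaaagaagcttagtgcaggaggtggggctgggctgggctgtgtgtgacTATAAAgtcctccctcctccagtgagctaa
In Trpv1 the capitals mark TGTGGT, a core bound by RUNX factors, 45 bases before the start. In Trpm8 they mark TAATTA, a homeodomain core, 190 bases before the start and the TATA box TATAAA 25 bases before it. Scn9a, Scn10a, Scn11a and Mrgprd held none of these motifs on either strand, nor did any promoter of the 6 hold the GC box GGGCGG. Among 32851 promoters of the same length the RUNX core was in 14.05%, the GC box in 32.74%, the TATA box in 12.37%, the homeodomain core in 4.84% and the shared 11-base run in 0.02%. These matches are descriptions of letters, and no binding was measured.

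On the 24 arrays, no spot was saturated and 55.1 to 71.7% of gene spots were well above background. The dorsal root label was checked against advillin (Avil), a marker of all sensory neurons. Avil was 12.62 to 14.27 in AN and 12.37 to 13.18 in EN at P0, so the ventral root carried it at a similar level there. From 1 W on, EN lay between 7.55 and 9.28. Chat, the acetylcholine-synthesizing enzyme of motor neurons, was 6.93 to 9.84 over all arrays, and none of the 7 tested motor neuron markers was higher in EN at any age. Replicate 3 of AN at 3 W stood apart, with Avil at 15.20 against 10.42 and 9.79 in replicates 1 and 2, so the results that include it are also given without it where that matters to a value or call. On replicate 3 of AN at 5 W, Avil went against the dorsal root label. Its Avil was 7.80, below the 3 EN arrays of 5 W (8.14, 7.86 and 8.53), against 11.52 and 9.94 in replicates 1 and 2. Other markers on this array did not all do so. The satellite glia marker Fabp7 (9.99), the astrocyte marker Gfap (10.99) and the dorsal horn marker Slc32a1 (9.70) lay above those EN arrays. The oligodendrocyte marker Mog (7.72) lay below them. The results at 5 W are given without this replicate too.

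**Figure D1:**
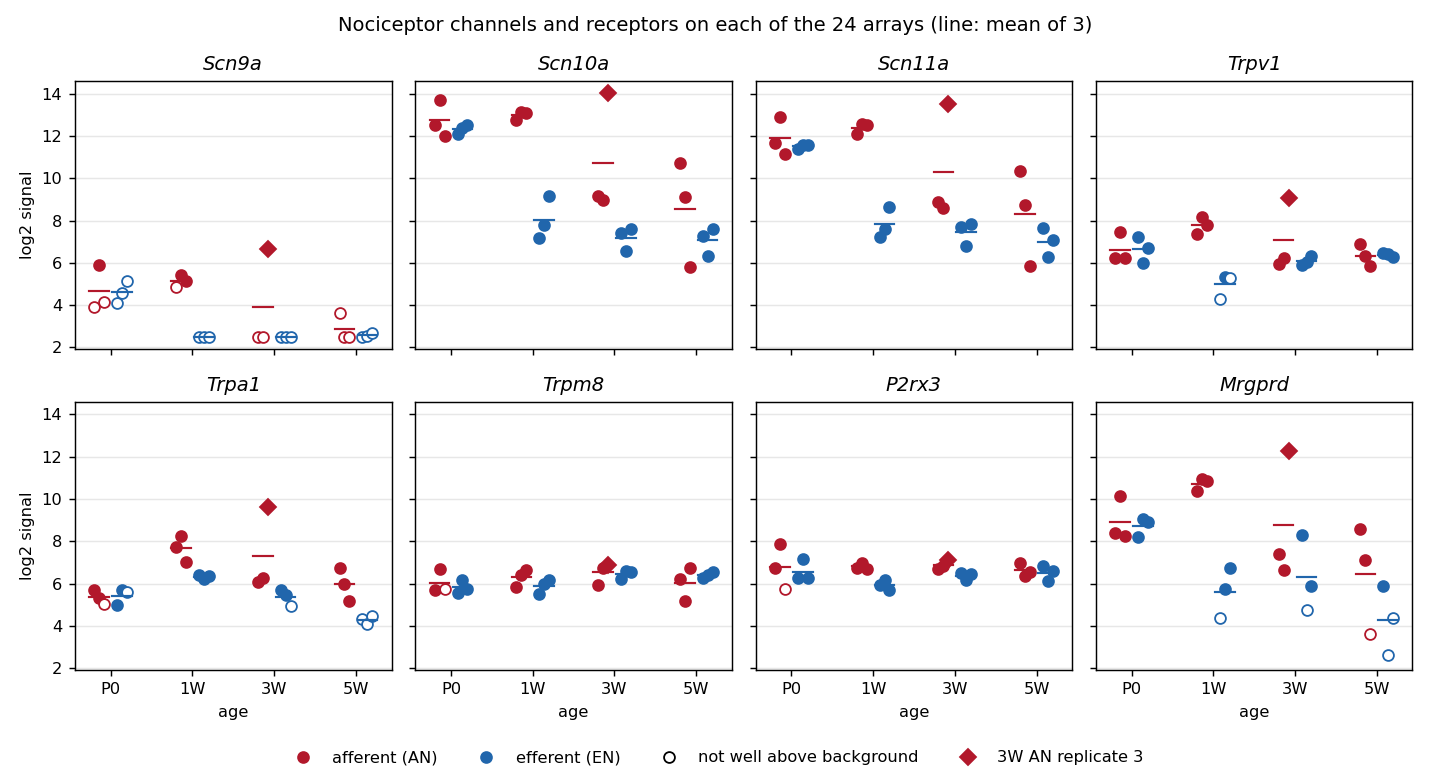
Log2 signal (vertical axis) of the used probe of each of the 8 genes on every array, by age (horizontal axis), in afferent (red) and efferent (blue) fibres. Short lines are means of 3 arrays, open symbols are not well above background, and the diamond is replicate 3 of AN at 3 W, which reached 14.03 for Scn10a while EN at 3 W stayed at 7.61 or below.

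At P0 both roots carried nociceptor transcripts at similar levels, and the roots separated at 1 W. Scn10a encodes the tetrodotoxin-resistant channel Nav1.8 that is largely restricted to nociceptors. At P0 its log2 signal was 12.50, 13.72 and 11.98 in AN and 12.09, 12.36 and 12.53 in EN. At 1 W it was 12.74, 13.15 and 13.07 in AN and 7.16, 7.80 and 9.16 in EN, so the groups overlapped at P0 and were far apart at 1 W. At 3 W it was 9.18, 8.95 and 14.03 in AN and 7.39, 6.57 and 7.61 in EN. At 5 W it was 10.72, 9.13 and 5.79 in AN and 7.27, 6.32 and 7.58 in EN. Replicate 3 of AN at 5 W lay below all 3 EN arrays of that age, whereas replicates 1 and 2 lay above them.

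Scn11a encodes Nav1.9, a channel with a persistent current near the resting potential. Its signal was 11.65, 12.92 and 11.13 in AN and 11.36, 11.58 and 11.58 in EN at P0. At 1 W it was 12.10, 12.57 and 12.52 in AN and 7.24, 7.59 and 8.63 in EN. It repeated the course of Scn10a array by array, including the high array at 3 W. At 3 W it was 8.86, 8.61 and 13.49 in AN and 7.68, 6.78 and 7.85 in EN. At 5 W it was 10.33, 8.73 and 5.84 in AN and 7.65, 6.28 and 7.10 in EN. The order of group means was the same for both channels, from AN at 1 W down through AN and EN at P0, AN at 3 W, AN at 5 W and EN at 1 W to EN at 3 W and 5 W, and every pair of neighbours in that order overlapped.

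Scn9a, the gene of Nav1.7, was near the limit of the array. On the used probe it was well above background on 4 of 24 arrays, all of them AN. These were replicate 2 at P0 with 5.91, replicates 2 and 3 at 1 W with 5.43 and 5.16, and replicate 3 at 3 W with 6.67. In EN the used probe was well above background on 0 of 12 arrays. Scn9a was not tested, because no group had it above background on all 3 arrays. Its second probe was above background on 4 arrays too, but not only in AN. They were AN replicates 1 and 2 at P0 with 5.07 and 4.46, and replicate 1 at 1 W with 7.23 in AN and 7.49 in EN. Low signal of these probes does not show that the transcript was absent.

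Mrgprd showed the largest fitted difference between the roots at 1 W among the 7 tested genes. It was 8.37, 10.15 and 8.25 in AN and 8.18, 9.06 and 8.93 in EN at P0, where the arrays overlapped. At 1 W it was 10.37, 10.94 and 10.85 in AN and 4.35, 5.76 and 6.75 in EN, the first of these not well above background. AN at 1 W was above every array of P0, the only neighbour in its order of means that did not overlap. At 3 W it was 7.40, 6.62 and 12.27 in AN and 8.28, 4.77 and 5.89 in EN. At 5 W it was 8.57, 7.13 and 3.61 in AN and 5.88, 2.63 and 4.35 in EN, where AN replicate 3 and EN replicates 2 and 3 were not well above background. The arrays of the roots overlapped at both of these ages.

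Trpv1, the capsaicin receptor, was 6.21, 7.45 and 6.22 in AN and 7.21, 6.01 and 6.69 in EN at P0. At 1 W it was 7.37, 8.18 and 7.80 in AN and 4.30, 5.34 and 5.30 in EN, where only replicate 2 was well above background. EN at 1 W was the lowest group of Trpv1 and did not overlap the next one. At 3 W it was 5.96, 6.22 and 9.04 in AN and 5.89, 6.05 and 6.34 in EN. At 5 W it lay between 5.85 and 6.87 on all 6 arrays.

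Trpa1, the receptor for mustard oil and other irritants, was low in both roots at birth. It was 5.70, 5.32 and 5.01 in AN and 4.97, 5.67 and 5.61 in EN at P0, with replicate 3 of each not well above background. At 1 W it was 7.73, 8.26 and 7.04 in AN and 6.38, 6.20 and 6.34 in EN. All AN arrays of 1 W were above the EN arrays of 1 W and above both roots at P0. At 3 W it was 6.07, 6.27 and 9.61 in AN and 5.70, 5.47 and 4.94 in EN. At 5 W it was 6.73, 5.98 and 5.18 in AN, whereas EN, at 4.32, 4.08 and 4.44, was well above background on 0 of 3 arrays. The group means at 5 W were at least 1.83-fold apart, a bound set by the lowest signal above background on each EN array, but AN replicate 3 lay below that limit for EN replicates 2 and 3.

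Trpm8, the cold and menthol receptor, lay between 5.17 and 6.90 on all 24 arrays, and its roots overlapped at every age. P2rx3 lay between 5.70 and 7.86. Its probe with the highest mean was designed on AK019679, a cDNA other than the RefSeq transcript, so a second probe on the RefSeq transcript was read beside it, and whether the first reports the P2rx3 mRNA was not tested. At 1 W the first probe was 6.75, 6.98 and 6.69 in AN and 5.95, 6.19 and 5.70 in EN. The RefSeq probe was 6.76, 6.97 and 7.32 in AN and 5.55, 5.74 and 5.60 in EN. On both probes all 3 AN arrays were above all 3 EN arrays at 1 W, with no difference past the test. On the probe designed on AK053021 the roots overlapped, with 6.98, 7.54 and 7.11 in AN and 6.55, 7.01 and 6.76 in EN (difference 0.44, limma adjusted p = 0.921).

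Of the 7 tested genes, 4 were higher in AN than in EN at 1 W, and no tested gene was lower. Over all tested probes 2.41% were higher at that age, and 2.79% differed in either direction. Scn10a differed by 4.95 on the log2 scale (SE 1.12, n = 3 arrays per group, adjusted p = 0.0148 in limma), a 30.9-fold difference. Scn11a differed by 4.58 (SE 1.05, limma adjusted p = 0.0158), or 23.9-fold. These are the sodium channels of nociceptor excitability, and in each pair of arrays with the same replicate number AN was the higher, by 3.91 to 5.59 for Scn10a and by 3.89 to 4.99 for Scn11a. Mrgprd differed by 5.10 (SE 1.34, limma adjusted p = 0.0367), with pairs 6.01, 5.18 and 4.10 apart. Trpv1 differed by 2.80 (SE 0.58, limma adjusted p = 0.00945), with pairs 3.07, 2.84 and 2.49 apart.

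The remaining members did not pass at 1 W with all 24 arrays. Trpa1 differed by 1.37 (limma adjusted p = 0.334), and P2rx3 by 0.86 (limma adjusted p = 0.27). Trpm8 differed by 0.41, with a 95% interval from -0.34 to 1.16, which leaves room for a difference of up to about that size. Without replicate 3 of AN at 3 W, which enters the shared estimate of spread, Trpa1 was also higher (limma adjusted p = 0.0181), so that 5 of 7 passed against 3.48% of all probes. Trpa1 also passed with array quality weights (limma adjusted p = 0.00676), and Mrgprd did not pass with no filter on dim probes (limma adjusted p = 0.0642). The count depended on single arrays of 1 W. It was 1, for Trpv1, without AN replicate 2, AN replicate 3 or EN replicate 2. Mrgprd alone was lost without AN replicate 1 (limma adjusted p = 0.0929). The count was 0 without EN replicate 1, where the differences of Scn10a, Scn11a and Trpv1 were 4.51, 4.29 and 2.46 (limma adjusted p = 0.092, 0.0888 and 0.0695). The 2 check probes of Scn10a differed by 3.17 and 2.08 and also passed (limma adjusted p = 0.0197 and 0.024).

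**Figure D2:**
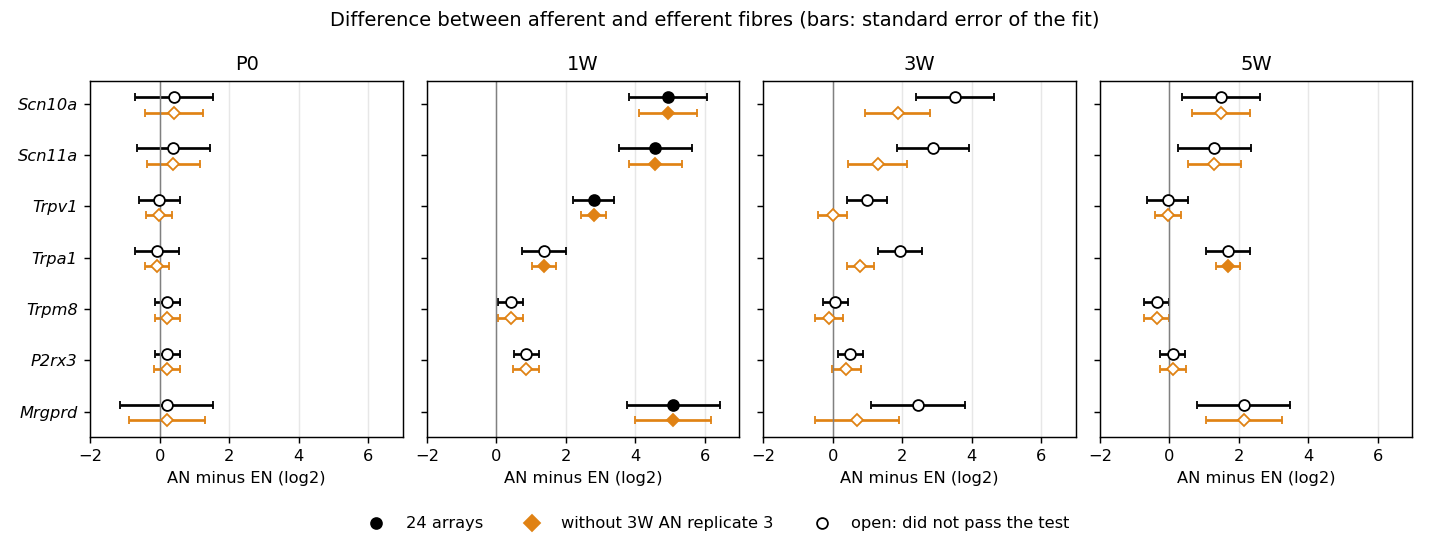
Difference between afferent and efferent fibres (horizontal axis, log2) for the 7 tested genes at each age, with bars for the standard error of the fit. Filled symbols passed the test, black circles use all 24 arrays and orange diamonds leave out replicate 3 of AN at 3 W, with which Scn10a at 3 W was 3.53 apart and without which it was 1.87 apart.

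At P0 none of the 7 tested genes differed between the roots, where 0.327% of all tested probes did. None reached an unadjusted p below 0.05 in limma, where 1.12% of all probes did so with a fold above 2. The differences were between -0.08 for Trpa1 and 0.41 for Scn10a. The 95% interval for Scn10a ran from -1.94 to 2.76, so a sizeable difference in either direction was not detectable. At 3 W no member passed against 3.11% of all probes, and 3 had an unadjusted p below 0.05 with a fold above 2 (5.64% of all probes). They were Scn10a with 3.53 (limma adjusted p = 0.0725), Scn11a with 2.88 (limma adjusted p = 0.12) and Trpa1 with 1.94 (limma adjusted p = 0.0782). With AN and EN arrays of the same replicate number paired, Scn10a and Scn11a passed at 3 W (limma adjusted p = 0.0386 and 0.0455), against 3.30% of all probes that were higher in AN. With replicate 3 of AN left out, Scn10a, Scn11a and Trpa1 were 1.87, 1.30 and 0.80 apart (limma adjusted p = 0.337, 0.5 and 0.308) and no member passed, where 1.31% of all probes were higher. Without AN replicate 1 or AN replicate 2 at 3 W, Scn10a and Trpa1 passed, but these fits kept the high replicate 3 of AN. Without AN replicate 3 at 5 W, Scn10a passed at 3 W (limma adjusted p = 0.0305). A check probe of Scn10a was 0.77 apart at 3 W (limma adjusted p = 0.651), and the other was well above background on 0 of 3 EN and 1 of 3 AN arrays, so it gave no difference there.

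At 5 W no member passed against 3.31% of all probes, and 1 had an unadjusted p below 0.05 (5.62% of all probes with a fold above 2). That gene was Trpa1, which differed by 1.68 (SE 0.63, limma adjusted p = 0.125) from EN signals that were at background, so that only the bound of at least 1.83-fold gives its size. It passed when replicate 3 of AN at 3 W was left out (limma adjusted p = 0.00425), where 3.22% of all probes were higher in AN. Scn10a differed by 1.49 (limma adjusted p = 0.493), with pairs 3.44, 2.81 and -1.79 apart. Without AN replicate 3 at 5 W, Scn10a differed by 2.86, Scn11a by 2.52 and Mrgprd by 3.56 (limma adjusted p = 0.102, 0.13 and 0.11), and Trpa1 still did not pass (limma adjusted p = 0.071).

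A change in the root difference itself was tested by comparing it with the difference at P0. At 1 W it had grown by 4.54 for Scn10a, 4.18 for Scn11a, 2.81 for Trpv1 and 4.90 for Mrgprd (unadjusted p = 0.0102, 0.011, 0.00308 and 0.0185 in limma), where 3.80% of all probes were below 0.05 with a fold above 2. None of these passed after adjustment (limma adjusted p = 0.394, 0.405, 0.272 and 0.48), where 0.0632% of all tested probes did. With replicate 3 of AN at 3 W left out, Trpv1 passed (limma adjusted p = 0.0108), as 1.37% of all probes did in that direction. At 3 W and 5 W no member passed this test, against 0.525% and 0.931% of all probes. Trpa1 had an unadjusted p of 0.0357 at 3 W, for a change of 2.02 that was 0.87 without replicate 3 of AN (limma adjusted p = 0.746), and no member was below 0.05 at 5 W, where 4.08% and 4.60% of all probes were, with a fold above 2.

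Along with the separation at 1 W, the sodium channels fell in the ventral root, whereas no change of theirs passed in the dorsal root over the first week. From P0 to 1 W in EN, Scn10a fell by 4.29 (SE 1.12, limma adjusted p = 0.00814), Scn11a fell by 3.69 (SE 1.05, limma adjusted p = 0.0135) and Trpv1 fell by 1.66 (SE 0.58, limma adjusted p = 0.0421). Thus 3 of 7 members fell, where 5.67% of all tested probes did and 11.9% changed in either direction. Mrgprd differed by -3.10 (limma adjusted p = 0.0955). Trpv1 no longer passed with AN and EN arrays of the same age and replicate number as a block, the replicate block (limma adjusted p = 0.0835). The same held with no filter on dim probes (limma adjusted p = 0.0661). Trpv1 also did not pass without EN replicate 1 or 3 at P0 or without any single EN array of 1 W or 3 W (limma adjusted p = 0.0501 to 0.173). Its change was -0.71 with normexp background (limma adjusted p = 0.176). Scn11a did not pass without EN replicate 1 at 1 W (limma adjusted p = 0.0554). Mrgprd passed when replicate 3 of AN at 3 W was left out (limma adjusted p = 0.0398). On the RefSeq probe of P2rx3 the change was -1.31 and passed (limma adjusted p = 0.0362), whereas on the probe with the highest mean it was -0.62 and did not (limma adjusted p = 0.219).

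In EN the sodium channels stayed low afterwards. At 3 W, Scn10a was 5.13 below P0 and Scn11a was 4.07 below it (limma adjusted p = 0.00084 and 0.00311), as 2 of 7 members, where 14.4% of all probes had fallen and 30.5% had changed. Neither passed with slide as a block (limma adjusted p = 0.0893 and 0.192). All 6 arrays of 3 W were on 1 slide, which held no array of P0. On 1 of its 2 check probes Scn10a differed by -1.40 from P0 at 3 W and did not pass (limma adjusted p = 0.122). At 5 W, Scn10a fell by 5.27, Scn11a fell by 4.50 and Mrgprd fell by 4.43 from P0 (limma adjusted p = 0.000621, 0.00135 and 0.00927), as 3 of 7 members, where 14.5% of all probes had fallen and 29.9% had changed. Mrgprd was well above background on only 1 of 3 EN arrays at 5 W, so the size of its fall is uncertain. Trpa1, at background in EN at 5 W, also passed from P0 to 5 W without replicate 3 of AN at 3 W (limma adjusted p = 0.00878), with a bound of at least 1.26-fold. The RefSeq probe of P2rx3 fell by 1.11 from P0 to 3 W (limma adjusted p = 0.0421). From 1 W to 3 W and from 3 W to 5 W in EN no member passed, where 11.7% and 1.12% of all probes did. None reached an unadjusted p below 0.05 in limma, where 13.6% and 3.85% of all probes did with a fold above 2. Trpv1 rose by 1.11 from 1 W to 3 W in EN when replicate 3 of AN at 3 W was left out (limma adjusted p = 0.0316), as 5.78% of all probes rose.

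In AN, Trpa1 rose by 2.33 from P0 to 1 W (SE 0.63, limma adjusted p = 0.012), a 5.04-fold change, where 4.96% of all probes rose and 8.58% changed. It was the only one of 7 tested members that passed. Its check probe was not well above background on any P0 array, and its group means were at least 1.72-fold apart (limma adjusted p = 0.0352). That probe was tested only because it was above background on all 3 arrays of AN at 1 W, so its pass adds no support. On the used probe the change did not pass with the replicate block (limma adjusted p = 0.0538), nor without AN replicate 3 at P0 or AN replicate 2 at 1 W (limma adjusted p = 0.0534 and 0.0623). Scn10a and Scn11a changed little by comparison on their used probes, with 0.25 and 0.50 (limma adjusted p = 0.908 and 0.79), although the 95% interval for Scn10a ran from -2.10 to 2.60. A check probe of Scn10a differed by -1.21 and did not pass (limma adjusted p = 0.1), but its arrays of P0 and 1 W did not overlap. The other check probe differed by 0.27 (limma adjusted p = 0.844). Mrgprd differed by 1.80 (limma adjusted p = 0.381, 95% interval -1.01 to 4.61). Trpv1 also rose, by 1.16, when replicate 3 of AN at 3 W was left out (limma adjusted p = 0.0304), as 5.23% of all probes did.

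The changes of AN to and from 3 W depended on replicate 3 of that age. With it, no member passed on its used probe from 1 W to 3 W, where 12.6% of all probes did, and none reached an unadjusted p below 0.05 in limma, where 14.3% of all probes did with a fold above 2. Without it, 5 of 7 members fell, against 8.40% of all probes. Scn10a fell by 3.92, Scn11a fell by 3.66, Mrgprd fell by 3.71, Trpv1 fell by 1.69 and Trpa1 fell by 1.51 (limma adjusted p = 0.00419, 0.00352, 0.0272, 0.00508 and 0.00602). With all arrays, a check probe of Scn10a fell by 1.65 from 1 W to 3 W and by 2.86 from P0 to 3 W (limma adjusted p = 0.0197 and 0.000131). At 3 W it was well above background on 1 of 3 AN arrays, so the size of these falls is uncertain. The other check probe differed by -1.38 and -1.11 and did not pass (limma adjusted p = 0.177 and 0.226). The 2 AN arrays left at 3 W were taken to vary as much as the other groups did. All arrays of 3 W were on 1 slide, which held no array of P0 or 1 W, so these changes with age were also changes of slide. From P0 to 3 W the only member that passed with all arrays was Trpa1, which rose by 1.97 (limma adjusted p = 0.0138), where 15.0% of all probes rose and 27.8% changed. It did not pass with the replicate block or with slide as a block (limma adjusted p = 0.0562 and 0.0908). Without replicate 3 the change of Trpa1 was 0.82 (limma adjusted p = 0.0783), and Scn10a and Scn11a fell by 3.67 and 3.16 instead (limma adjusted p = 0.00339 and 0.00493), against 14.1% of probes that fell.

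By 5 W, Scn10a fell by 4.19 and Scn11a fell by 3.60 from P0 in AN (limma adjusted p = 0.00425 and 0.00767), as 2 of 7 members, where 12.7% of all probes fell and 27.8% changed. Both also passed without replicate 3 of AN at 3 W (limma adjusted p = 0.000398 and 0.000675). Without AN replicate 3 at 5 W, Scn10a fell by 2.82 (limma adjusted p = 0.0368), whereas Scn11a differed by -2.37 and did not pass (limma adjusted p = 0.0637). The RefSeq probe of P2rx3 fell by 1.38 (limma adjusted p = 0.0148), and the used probe differed by -0.16 (limma adjusted p = 0.734). From 3 W to 5 W in AN no member passed, where 1.68% of all probes did. Trpa1 had an unadjusted p of 0.0454 there, for a difference of -1.35, as 3.95% of all probes did with a fold above 2. The difference was -0.21 without replicate 3 of AN at 3 W (limma adjusted p = 0.834), and without that of 5 W it was -0.96 (limma adjusted p = 0.414).

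The levels of the sodium channels followed Avil closely. Pearson's r with Avil over the 24 arrays was 0.989 for Scn10a, 0.987 for Scn11a, 0.911 for Mrgprd, 0.759 for Trpv1, 0.556 for Trpa1, 0.514 for P2rx3 and -0.004 for Trpm8. The arrays share ages, fibres and slides, so these are descriptions. The mean log2 signal of 10 markers of all sensory neurons was 12.84 to 13.37 in EN at P0, 9.68 to 11.12 in EN at 1 W and 13.53 to 13.62 in AN at 1 W. In AN it was 11.46, 10.92 and 14.80 at 3 W and 12.36, 11.88 and 10.07 at 5 W. Scn10a, Scn11a and Mrgprd were highest on the AN arrays of 3 W and 5 W on which the marker list was highest, whereas Trpa1 was low at P0, where the list was high in both roots. In samples of whole tissue, fewer sensory neurons or axons and less RNA in each cannot be told apart, and the part of ganglion cell bodies in these results was not tested.

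**Figure D3:**
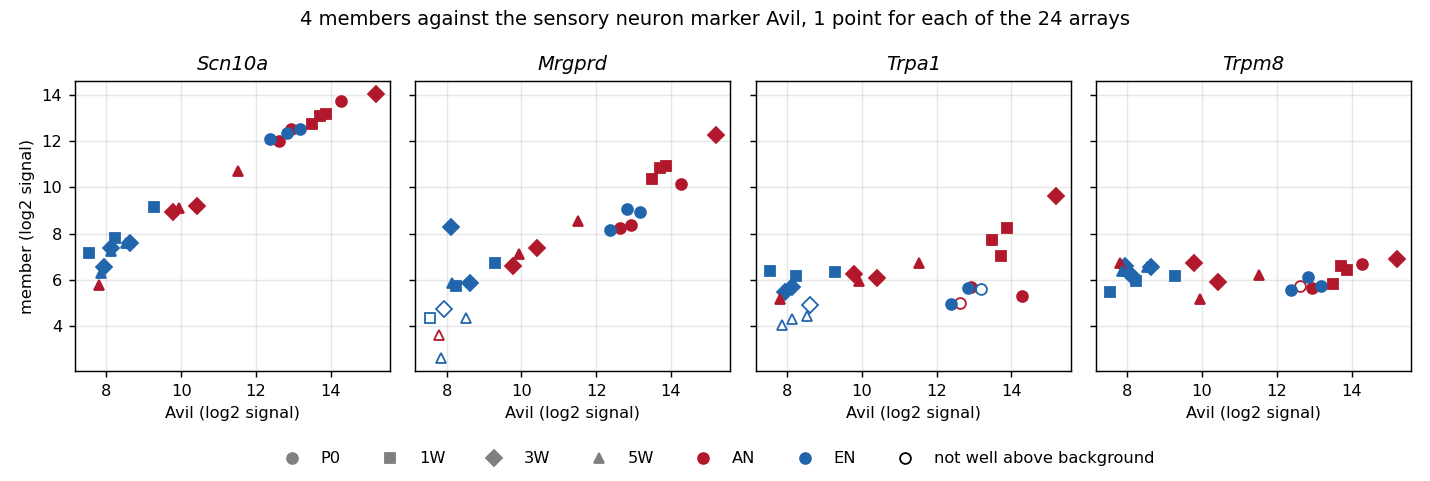
Log2 signal of Scn10a, Mrgprd, Trpa1 and Trpm8 (vertical axis) against that of Avil (horizontal axis) on the 24 arrays, with age by symbol and fibre by colour, and open symbols not well above background. Scn10a lies along 1 line with Avil (r = 0.989), Trpa1 at P0 lies below its arrays of 1 W at similar Avil, and Trpm8 is flat (r = -0.004).

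Set against Avil on the same array, the members did not all keep the same distance. The distance itself depends on the probes, and only its change between groups is described here, without a test. For Scn10a it moved from -0.54 ± 0.11 (SD, n = 3) in AN at P0 to -0.70 ± 0.06 at 1 W, and for Scn11a from -1.37 ± 0.11 to -1.30 ± 0.10. For Mrgprd it moved from -4.35 ± 0.22 to -2.97 ± 0.14, and was -3.04 ± 0.12 at 3 W with replicate 3 included. For Trpa1 it moved from -7.93 ± 0.90 to -6.01 ± 0.57, and for Trpv1 from -6.65 ± 0.22 to -5.91 ± 0.21. For P2rx3 and Trpm8 it moved the other way, from -6.49 ± 0.34 to -6.89 ± 0.14 and from -7.24 ± 0.36 to -7.40 ± 0.29. Over the 3 AN arrays of 3 W, the high one included, the distance was -1.24 to -0.83 for Scn10a, -1.71 to -1.17 for Scn11a and -3.16 to -2.93 for Mrgprd.

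The genes whose levels were most like each member over the 24 arrays were sought among 23863 genes. For Scn10a they included Scn11a (r = 0.996) and Isl2 (r = 0.993). For Scn11a they were Scn10a, Prdm12 (r = 0.988) and Avil (r = 0.987). For Mrgprd they were Tmem45b (r = 0.963), Scn11a (r = 0.939) and the neurofilament gene Nefm (r = 0.935). Trpv1 was most like Ptgir (r = 0.946), the prostacyclin receptor, and Trpa1 most like the protease inhibitor gene Serpinb1a (r = 0.934). For Trpm8 and P2rx3 the highest values were lower, 0.818 with Samsn1 and 0.831 with Armc6. Among the members, Scn10a had r = 0.917 with Mrgprd, 0.695 with Trpv1, 0.541 with Trpa1, 0.469 with P2rx3 and -0.079 with Trpm8.

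Other genes of the nociceptor pathway were read from lists. At P0 no gene of the 6 lists of partners, channels, receptors and transcription factors differed between the roots with all 24 arrays, and Gfra3 was higher in AN, by 1.14, without replicate 3 of AN at 3 W (limma adjusted p = 0.049). At 1 W, 4 of 12 sodium channel partners were higher in AN, beside 2.41% of all probes, and none was lower, with a median difference of 0.98 against -0.06 over all tested probes. Scn4b, a beta subunit, differed by 4.01 (limma adjusted p = 0.00572), Tmem233 by 3.20 (limma adjusted p = 0.0348), Fgf12, a channel-binding FGF homologue, by 3.13 (limma adjusted p = 0.0251) and the beta subunit gene Scn2b by 1.52 (limma adjusted p = 0.0256). Of 14 other channels 4 were higher and none was lower, with a median of 0.57. These were the acid-sensing channels Asic3 with 4.19, Asic2 with 3.15 and Asic1 with 2.88 and the touch channel Piezo2 with 1.38 (limma adjusted p = 0.0112, 0.00683, 0.0237 and 0.0425).

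The relatives of P2rx3 and Mrgprd differed in their counts. None of the 6 other P2X subunits differed between the roots at any age. Of 9 tested Mas-related receptors, 2 were higher in AN at 1 W and none was lower, with a median of 0.33. They were the itch receptors Mrgpra3 with 4.43 and Mrgprx1 with 2.52 (limma adjusted p = 0.0145 and 0.0135). The count was 4 of 9 without replicate 3 of AN at 3 W, with Mrgpra2a and Mrgpra2b added (limma adjusted p = 0.00366 and 0.0304). Probes of near-identical family members can share signal.

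Of 16 receptors for itch and inflammatory mediators, 7 were higher in AN at 1 W and none was lower, with a median of 0.58. They included the serotonin-gated channel Htr3a with 4.32, Ptgir with 3.91 and Ret with 3.55 (limma adjusted p = 0.0174, 0.00806 and 0.00776). Of 7 transcription factors of the nociceptor lineage, 3 were higher, which were Prdm12 with 5.19, Isl1 with 4.93 and Klf7 with 1.02 (limma adjusted p = 0.0282, 0.0139 and 0.00376), and none was lower, with a median of 1.02. Of the 10 markers of all sensory neurons 7 were higher, led by Avil with 5.34 and peripherin (Prph) with 4.97, with a median of 4.04. All these counts stand beside 2.41% of all probes. Without replicate 3 of AN at 3 W, beside 3.48%, they were 6 of 12 partners, 5 of 14 channels, 8 of 16 receptors, 4 of 7 transcription factors and 8 of 10 markers.

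**Figure D4:**
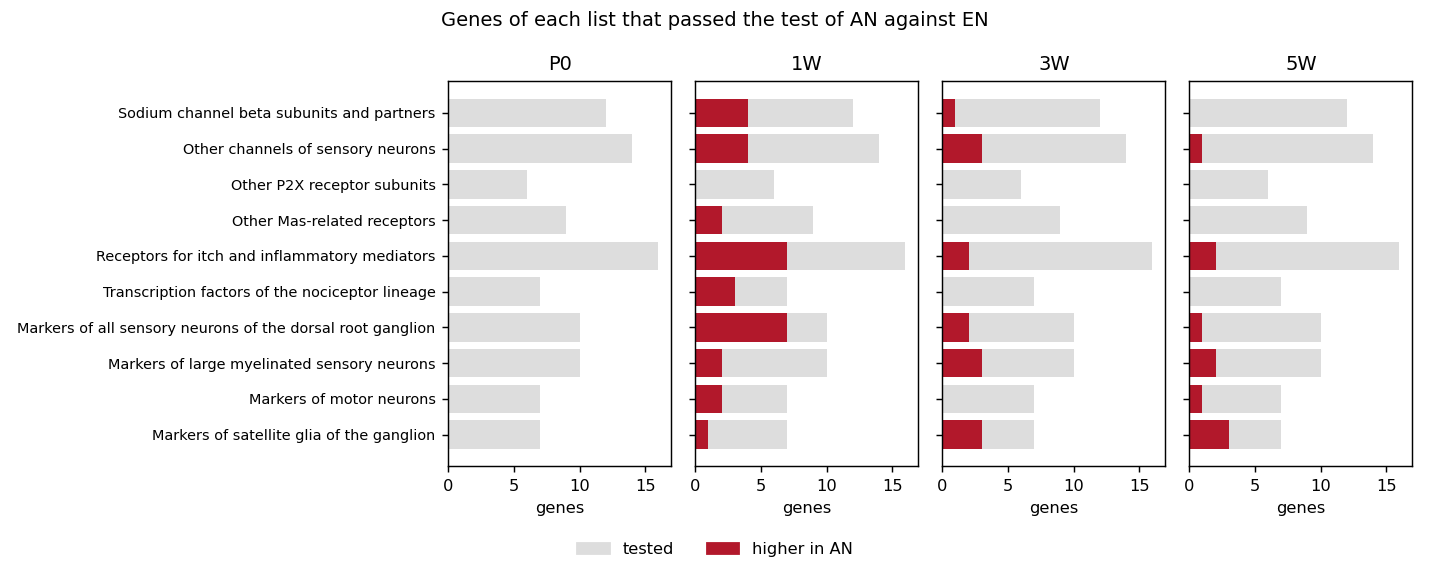
Number of genes (horizontal axis) tested (grey) and higher in AN than in EN (red) in each of 10 gene lists at each age, with all 24 arrays. Of the markers of all sensory neurons 7 of 10 were higher at 1 W, 2 at 3 W and 1 at 5 W, and none of the lists had a gene that passed at P0.

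Fewer genes of these lists passed later, where 3.11% and 3.31% of all probes differed at 3 W and 5 W. At 3 W they were Fgf12 with 2.72, Asic3 with 3.37, Asic1 with 2.86 and Asic2 with 2.32, and the receptor genes Gfra3 with 2.01 and Gfra2 with 1.38 (limma adjusted p = 0.0433, 0.0326, 0.0203, 0.0315, 0.00786 and 6.6e-05). Without replicate 3 of AN only Gfra2 and Gfra3, the receptors for neurturin and artemin, passed among them, with 1.23 and 1.31. At 5 W Asic1 with 3.53, Gfra3 with 1.55 and Gfra2 with 1.19 were higher (limma adjusted p = 0.00422, 0.0313 and 0.000214). Without replicate 3 of AN at 3 W, 7 genes of the lists were higher at 5 W, where 3.22% of all probes were. Fgf12, Asic2, Asic3 and Htr3a were added, and Lpar3 was lower, with -1.48 (limma adjusted p = 0.025). Without replicate 3 of AN at 5 W, Gfra3 did not pass at 5 W (limma adjusted p = 0.0882), Fgf12, Asic2 and Htr3a passed, and Ptger3 was lower, with -1.75 (limma adjusted p = 0.00424). With all 24 arrays no gene of the 6 lists was lower in AN at 3 W or 5 W. Some markers of large myelinated sensory neurons differed as well, beside the same shares of all probes at 3 W and 5 W and 2.79% at 1 W. With all 24 arrays only the 3 named next passed, and the rest of this list did not differ at any age. Calb1 was higher in AN by 3.19, 4.43 and 4.14 at 1 W, 3 W and 5 W. Cntnap2 was higher by 4.32, 3.45 and 3.02 at these ages, and Ntrk3 by 1.22 at 3 W. Without replicate 3 of AN at 3 W, Cntnap2 and Ntrk3 did not pass at 3 W, and Nefh was lower there, with -1.88 (limma adjusted p = 0.0378). Pvalb then passed at 1 W.

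Markers of other cells also differed between the roots, where 2.79%, 3.11% and 3.31% of all probes differed at 1 W, 3 W and 5 W. Among satellite glia markers Fabp7 was higher in AN at 1 W, and Fabp7, Kcnj10 and Ednrb were higher at 3 W and 5 W, 3 of 7 with a list mean of 12.25 to 12.64 in AN and 11.27 to 11.42 in EN at 5 W. Among astrocyte markers 3 of 6 were higher in AN at 1 W, none at 3 W and 4 at 5 W, with Gfap 2.55 higher at 1 W. Among dorsal horn neuron markers 4 of 8 were higher in AN at 5 W, with Slc32a1 2.95 higher. Among motor neuron markers Isl2, which sensory neurons also express, and Ache were higher in AN at 1 W, and Ache was higher at 5 W. No marker of these 4 lists was lower in AN at 1 W, 3 W or 5 W, with all 24 arrays or without replicate 3 of AN at 3 W or 5 W, and their part in the differences of the nociceptor genes was not tested.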

How the data were processed

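Nerve root RNA was hybridised to 24 Agilent SurePrint G3 arrays with 1 Cyanine-3 sample each. The authors deposited the fluorescence intensity of each spot from Feature Extraction 10.7.1.1. They also deposited a table of 56743 probes in log2 units, of which 56605 were gene probes, made by quantile normalization in GeneSpring according to the methods. Quantile normalization gives every array the same distribution and cannot show a change in total RNA. Each table column was checked against its own array (r = 0.996 or higher). Probe coordinates are those of the array files (mm9).

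Groups came from the labels. Log2 values were fitted in limma 3.58.1 (R 4.3.3) with 8 group means over 24 arrays, and 17 contrasts were taken. A probe was tested when all 3 arrays of some group had it well above background, which left 36409 probes, by Benjamini-Hochberg adjusted p below 0.05 with a fold above 2. The study's methods name limma, p below 0.05 and that fold, and do not say whether p was adjusted. The p-values measure the spread between arrays, which may in part be technical. The fit was tested on simulated data.

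The members and gene lists were chosen with earlier results of these data known. Named genes were the members, the 3 genes most like each member (the closest for Trpv1, Trpa1, Trpm8 and P2rx3 are printed), up to 4 genes of each list with the largest passing difference and a fixed set of markers, of which some results are not reported here. List genes that passed only with an array left out were named after their values were seen. AN and EN arrays of 1 replicate number lay on 1 slide, and their deviations from group means correlated in all 12 pairs (r = 0.107 to 0.646). At 3 W, where all arrays shared a slide, r was 0.184, 0.107 and 0.214. Whether the correlations came from shared animals or a shared slide was not tested. The main fit did not pair these arrays, and the replicate block was an alternative setting. For root differences and their change from P0, it fitted each AN and EN pair as a term. For changes with age, it gave AN and EN arrays of the same age and replicate number a common correlation of 0.56. It paired no arrays of different ages. Alternatives were scanner signals with quantile, 75th percentile or normexp (offset 50) scaling, other filters and thresholds, slide or replicate as a block, array weights, only the compared groups, other probes and each array left out.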

Additional observations from a re-analysis of the deposited data

How the results depend on the processing

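Counts of passing members were recomputed under 35 other settings. Between the roots at 1 W the count of 4 was 2 over probes above background on all 24 arrays, where only 2 members were tested, and 0 to 5 with 1 array left out. At 3 W the count of 0 was 2 with the replicate block, 1 with array quality weights, 3 by unadjusted p and 0 to 2 with 1 array left out. At 5 W the count of 0 was 1 with array quality weights and by unadjusted p, and 0 to 1 with 1 array left out. At P0 it was 0 under all 35.

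From P0 to 1 W in AN the count of 1 was 0 over probes above background on all 24 arrays and with the replicate block, 2 with array quality weights, and 0 to 2 with 1 array left out. From P0 to 3 W in AN the count of 1 was 0 over those probes, with the replicate block, with slide as a block and with only the groups compared, 2 with array quality weights, and 1 to 2 with 1 array left out. Without replicate 3 of AN at 3 W the 2 were falls of Scn10a and Scn11a, and the rise of Trpa1 no longer passed. From P0 to 5 W in AN the count of 2 was 1 to 2 with 1 array left out. In EN the count of 3 from P0 to 1 W was 1 to 4 with 1 array left out, and the count of 2 from P0 to 3 W was 0 with slide as a block. From 1 W to 3 W the count of 0 in AN was 5 with array quality weights and 0 to 5 with 1 array left out, and in EN it was 1 with array quality weights or only the groups compared and 0 to 1 with 1 array left out. From 3 W to 5 W in AN it was 1 by unadjusted p. For the change of the root difference from P0, the count of 0 at 1 W was 3 with array quality weights, 4 with only the groups compared or by unadjusted p, and 0 to 1 with 1 array left out, and at 3 W it was 1 by unadjusted p. The causes were not tested.

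Of 566 recomputed values of the 16 member changes that passed, 526 kept the call, 40 lost it and none changed sign. Of 3599 recomputed values of those that did not pass, 62 passed, and 128 changed sign without passing. P2rx3 from P0 to 3 W in AN reversed on the probe designed on AK053021, from 0.10 to -2.46 (limma adjusted p = 0.036). The replicate block changed no call other than those named here and in the results. With 3 arrays per group precision is limited, and Scn9a could not be tested.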
